A study of Drosophila melanogaster with 15 samples.

Results

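The genes described here are 9 regulators of progenitor, Notch and endocrine fate in the fly gut, out of the 12133 entries of the deposited expression table. They were chosen by name: *esg*, *Sox21a*, *zfh2*, *Dl*, *N*, *klu*, *pros*, *sc* and *ase*. All 9 were found in the table, where *Dl* is listed under its full name, Delta. Midguts of *w1118* larvae, a white-eyed laboratory strain, were sequenced as polyA RNA with a stranded kit. Early L2 midguts were taken 2 days after egg laying in pools of 60, late L2 midguts at 3 days in pools of 30, and early L3 midguts at 4 days in pools of 10. Each stage has 5 biological replicates, which gives 15 libraries. All larvae carried the same genotype, were fed yeast only and were not sexed, so that age and stage are the differences between groups that the labels give, and pool size moved with them. The larval stage, the time since egg laying and the pool size therefore cannot be told apart.

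The larval midgut consists mostly of enterocytes, large absorptive cells that grow by copying their DNA without dividing. Between them lie enteroendocrine cells, which secrete peptide hormones, and small islands of dividing progenitors that build the adult gut at metamorphosis. In the adult gut, a stem cell that displays the ligand Delta activates the receptor Notch in its neighbour, which then becomes an enterocyte precursor. Low Notch activity together with proneural factors of the *achaete-scute* complex leads instead to an endocrine cell, marked by the homeodomain protein Prospero.

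The progenitor genes lie on different chromosomes of the BDGP6.54 assembly. *esg*, which encodes a Snail family zinc finger factor that keeps progenitors undifferentiated, is a gene of 1 transcript on chromosome 2L, at 15333866 to 15336138 on the plus strand. *Sox21a*, which encodes a Sox factor of adult stem cells and enteroblasts, is on 3L at 14103481 to 14108118, on the minus strand. *zfh2*, which encodes a large protein with zinc fingers and homeodomains, is on chromosome 4 at 501810 to 540874, on the plus strand. The Notch genes are *Dl* on 3R at 19302731 to 19326217, *N* on X at 3134870 to 3172221, and *klu*, on 3L at 10981171 to 11009188, which encodes a zinc finger repressor found in enteroblasts. *pros* is on 3R at 11328480 to 11407627, and the proneural genes *sc* and *ase* are on X at 396060 to 397497 and 460747 to 463176. An exon of *zfh2* overlaps an exon of *Tdg* on the other strand, and an exon of *pros* overlaps an antisense long noncoding RNA, while *sc* and *ase* lie within the span of *CG32816* on the other strand without sharing exons with it. Whether reads were counted by strand is not given in the sources used here.

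Levels are in CPM, read numbers brought to the same total in every library, and libraries held 23981806 to 33902298 reads. The deposited values came from whole reads, so that read numbers could be recovered. A total of 9787 entries reached 0.5 CPM in at least 1 library and were tested with limma on log2(CPM + 0.5), a scale that understates the change of low genes. A gene is said to rise or fall where its Benjamini-Hochberg adjusted p over all tested entries is under 0.05 and the size of its log2 fold change (here log2 change) is at least 0.5. Of the 9 regulators, 7 passed the filter, while *sc* and *ase* did not. In whole midguts, fewer cells of a type and less RNA per cell cannot be told apart. Markers of the labelled tissue were abundant. The 10 enterocyte genes on a marker list, such as the brush border myosin gene *Myo61F*, summed to between 3675 and 4177 CPM in every library. A list of 12 genes of visceral and other muscle summed to between 5092 and 9193 CPM, and the kind of muscle was not told apart. One library stood apart in its neural markers. In early L3 replicate 2, 9 of 9 neuron and glia markers were at their highest level of the 5 early L3 libraries, and summed to 27.3 CPM against 10.3 to 11.6 CPM in the other 4. The glial marker *repo* had 13 reads there and 2 reads in the other 4 libraries together. Late L2 replicate 4 stood apart from its stage in other markers. Its fat body markers summed to 269 CPM, against 3.50 to 29.4 CPM in the other late L2 libraries. Its tracheal markers summed to 79.2 CPM, against 137 to 170 CPM.

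**Figure D1:**
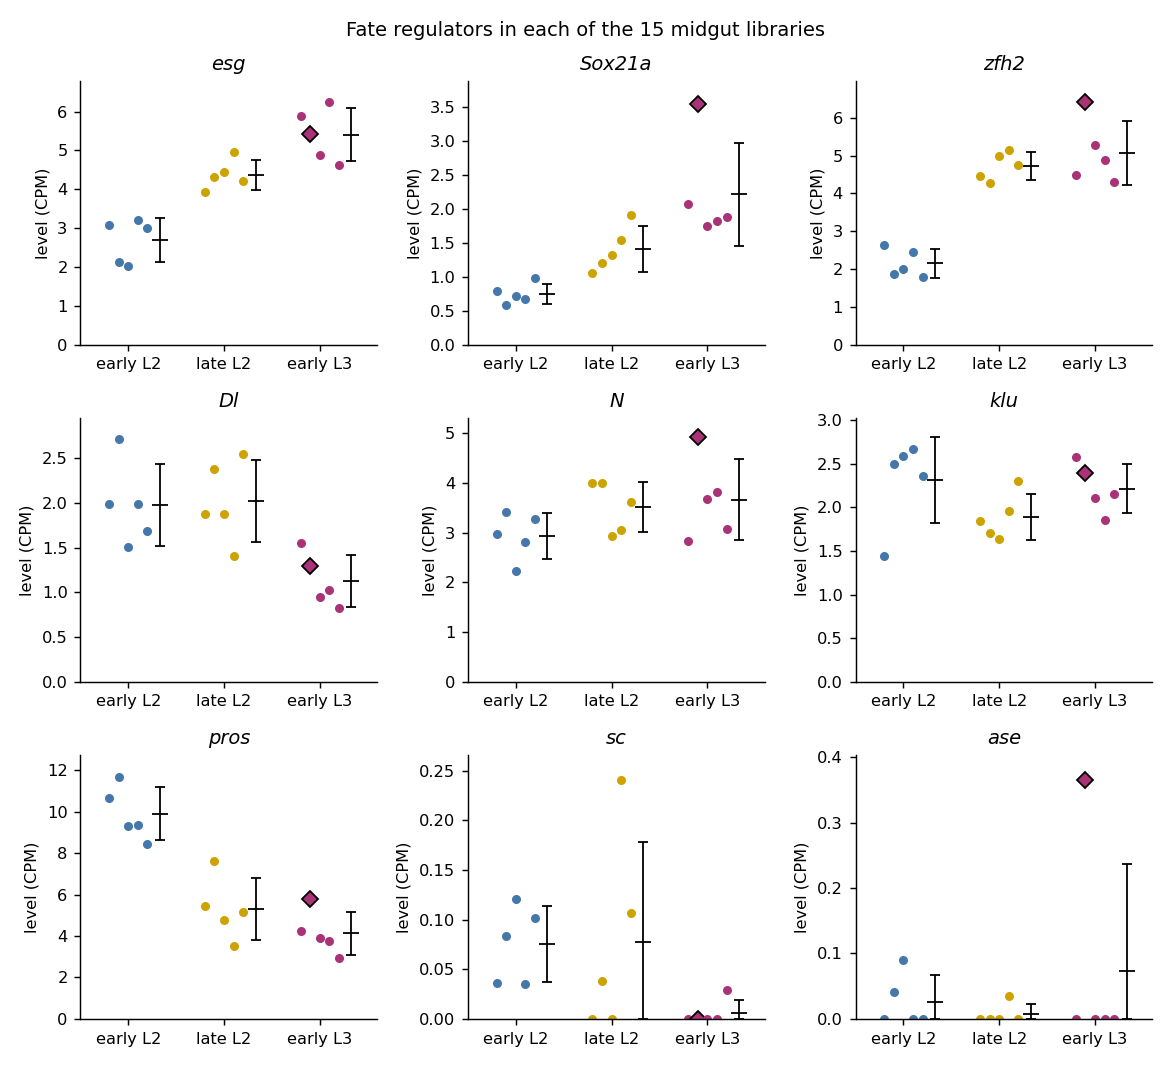
Levels of the 9 regulators in CPM, 1 panel per gene, with 1 point per library, replicates 1 to 5 from left to right within a stage. Black bars give the mean and SD of n = 5, and the black-edged diamond is early L3 replicate 2, which is the highest early L3 point for *Sox21a* (3.55 CPM), *zfh2* (6.41 CPM), *N* (4.92 CPM), *pros* (5.78 CPM) and *ase* (0.365 CPM).

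During the second instar, 3 of the 7 tested regulators rose and 1 fell, so 4 passed the test, where 9.89% of all tested entries did. The 3 that rose, *esg*, *Sox21a* and *zfh2*, are all expressed in adult progenitors, and 3.38% of all entries rose. The 1 that fell, *pros*, marks endocrine cells, and 6.51% of entries fell. The median log2 change of the 7 was 0.23, against 0.01 over all entries tested. From late L2 to early L3 only *Dl* was called, 1 of 7, where 25.1% of entries were called, 6.45% higher and 18.7% lower. Over the whole interval from early L2 to early L3, 3 of 7 rose and 2 fell, where 34.2% of entries were called, 9.86% higher and 24.3% lower. For 3 genes every late L2 value was above every early L2 value (9.73% of entries) and for 1 below (8.68%, and 18.4% in either direction). From late L2 to early L3 the values overlapped for all 7, where 40% of entries did not overlap. For early L3 against early L2, 3 genes lay wholly above (16.2% of entries) and 1 wholly below (32.2%, and 48.4% in either direction). The 7 genes thus differed in direction and in the interval in which they were called. A test of the later minus the earlier change was passed by *zfh2* alone.

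**Figure D2:**
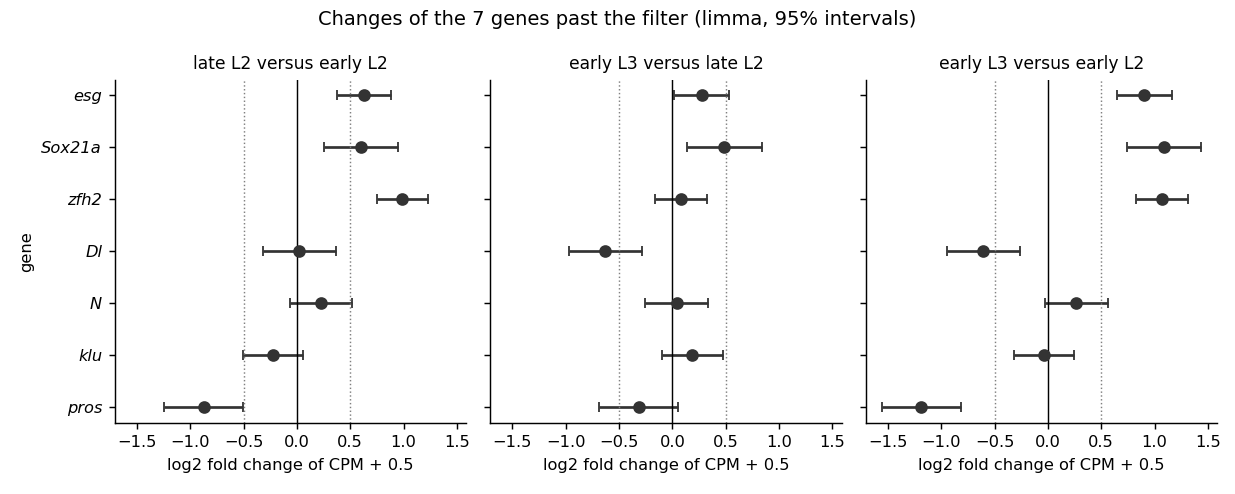
Log2 change of CPM + 0.5 (x axis) for the 7 regulators past the filter in 3 comparisons, with 95% intervals from limma over 15 libraries. Dotted lines mark the minimum of 0.5 in size. *zfh2* lies at 0.99 in the L2 comparison and at 0.08 from late L2 to early L3, while *Dl* lies at 0.02 and then at -0.63.

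*esg* was at 3.07, 2.13, 2.02, 3.20 and 3.01 CPM in the early L2 libraries. In late L2 it was at 3.92, 4.31, 4.46, 4.95 and 4.21 CPM, and in early L3 at 5.87, 5.41, 4.87, 6.25 and 4.63 CPM. Every late L2 library was above every early L2 library, whereas the late L2 and early L3 ranges overlapped. The means were 2.68 ± 0.564, 4.37 ± 0.379 and 5.41 ± 0.675 CPM (SD, n = 5). *esg* rose 1.63-fold in mean CPM during L2 (log2 change 0.63, SE 0.12, limma adjusted p = 0.00134). Into early L3 the log2 change was 0.27 with a 95% interval of 0.02 to 0.53 (limma adjusted p = 0.0676), which did not pass. Over both intervals *esg* rose 2.01-fold (0.90, limma adjusted p = 9.65e-06).

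*zfh2* rose during L2 and was not called after it. It was at 2.64, 1.88, 1.99, 2.45 and 1.79 CPM in early L2 and at 4.47, 4.27, 5.00, 5.16 and 4.74 CPM in late L2. In early L3 the values were 4.49, 6.41, 5.27, 4.88 and 4.31 CPM. Early L2 libraries were all below the others, and the late L2 and early L3 values were intermixed. The rise during L2 was 2.20-fold in mean CPM (log2 change 0.99, SE 0.11, limma adjusted p = 2.09e-05). Its log2 change into early L3 was 0.08, with a 95% interval of -0.16 to 0.32. The later change was smaller than the earlier one by a test of the difference itself (-0.91 on the log2 scale, SE 0.20, limma adjusted p = 0.00232). *zfh2* was the 1 regulator of 7 that passed this test, where 24.9% of entries did, 6.5% in the positive and 18.4% in the negative direction. Without early L3 replicate 2 the difference was -0.99 and also passed.

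*Sox21a* also rose during L2, from a low level, with 14 to 107 reads per library. Its values were 0.795, 0.584, 0.723, 0.675 and 0.979 CPM in early L2, and 1.06, 1.21, 1.33, 1.55 and 1.91 CPM in late L2. In early L3 they were 2.08, 3.55, 1.74, 1.82 and 1.89 CPM. The early L2 values were all below the late L2 values, and early L3 overlapped late L2 only through the late L2 library at 1.91 CPM. *Sox21a* rose 1.88-fold in mean CPM during L2 (log2 change 0.60, SE 0.16, limma adjusted p = 0.0133), a call that was lost with a pseudocount of 1 (0.45) or 4 (0.19). Its later log2 change of 0.49 from late L2 to early L3 (limma adjusted p = 0.0207) was under the fold minimum. This comparison depended on single libraries and on scaling. It passed without late L2 replicate 4 (0.52) or 5 (0.58), or early L3 replicate 3 (0.55), 4 (0.53) or 5 (0.52), with TMM scaling (0.59), and with edgeR on the recovered reads (0.78, adjusted p = 0.00956). Without early L3 replicate 2, the library with the raised neural markers, it was 0.33 (limma adjusted p = 0.0496). From early L2 to early L3 *Sox21a* rose 2.95-fold (1.09, limma adjusted p = 3.28e-05).

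*Dl* was measured at 1.99, 2.71, 1.51, 1.99 and 1.69 CPM in early L2 and at 1.88, 2.38, 1.87, 1.41 and 2.55 CPM in late L2. In early L3 it was at 1.55, 1.30, 0.945, 1.02 and 0.826 CPM. Both L2 stages covered nearly the same range, and 1 early L3 library, at 1.55 CPM, reached into it. During L2 the log2 change was 0.02, with a 95% interval of -0.32 to 0.36. Into early L3 *Dl* fell, with mean CPM 0.559 times that of late L2 (log2 change -0.63, SE 0.16, limma adjusted p = 0.00368). The call was lost after quantile normalization (-0.37). For early L3 against early L2, where the log2 change was -0.60 (limma adjusted p = 0.00375), it was lost under each scaling tried: TMM (-0.49), median-ratio (-0.50) and quantile normalization (-0.26). The later change differed from the earlier by -0.65 (limma adjusted p = 0.0801), which did not pass over all libraries. It did so without early L2 replicate 2 (-0.75), and likewise when late L2 replicate 4 (-0.84) or early L3 replicate 1 (-0.74) was left out.

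The receptor gene *N* did not pass in any comparison. Its means were 2.94 ± 0.465, 3.52 ± 0.508 and 3.66 ± 0.811 CPM in stage order (SD, n = 5), and the 3 ranges overlapped. From early L2 to early L3 the log2 change was 0.27 (95% interval -0.03 to 0.56), and 0.17 without early L3 replicate 2. Only quantile normalization gave a call (0.61). *klu* did not pass either, at 2.31 ± 0.497, 1.89 ± 0.264 and 2.22 ± 0.278 CPM, with a log2 change of -0.22 during L2 (95% interval -0.51 to 0.06). Early L2 replicate 1 was at 1.45 CPM while the other 4 early L2 libraries were between 2.36 and 2.66 CPM. Without it, the later change of *klu* exceeded the earlier by 0.54 (limma adjusted p = 0.0264), and with it by 0.41 (adjusted p = 0.184).

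Of 20 genes for other ligands, processing enzymes and nuclear partners of Notch, limma, edgeR and DESeq2 called 0 during L2. Limma called 9.89% of all entries in that comparison, and 6 of the 20 had an unadjusted p under 0.05 in limma. From late L2 to early L3, 1 of the 20 fell and 0 rose, below the share of all entries (25.1% called, 18.7% lower). The 1 was *Ser*, which encodes the second Notch ligand and fell from 7.44 ± 2.17 to 4.30 ± 0.644 CPM (log2 change -0.69, limma adjusted p = 0.00202). After quantile normalization *Ser*, like *Dl*, was not called (-0.41). The ubiquitin ligase gene *neur*, whose product drives endocytosis of Delta, was at 17.6 ± 1.51, 21.1 ± 1.11 and 15.7 ± 1.90 CPM, and its log2 change of -0.42 into early L3 was under the minimum. The list members with the highest CPM, the Notch-degrading ubiquitin ligase gene *Su(dx)* and the corepressor gene *CtBP*, stayed between 183 and 236 CPM in the stage means, with no call. Over the whole interval 1 of the 20 rose and 1 fell, where 9.86% of entries rose and 24.3% fell. *spdo*, which encodes a membrane protein that promotes Notch signalling after asymmetric division, rose from early L2 (0.451 ± 0.176 CPM) to early L3 (0.892 ± 0.226 CPM, limma adjusted p = 0.00775). It did not pass without early L2 replicate 3 (0.50) or early L3 replicate 2 (0.48), or with a pseudocount of 1 (0.38).

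Of 7 Notch targets of the *E(spl)* family in the table, 4 passed the filter. From late L2 to early L3, 1 of the 4 rose and 0 fell, where 6.45% of entries rose and 18.7% fell. *E(spl)m3-HLH*, a repressor of proneural genes, was at 0.784 ± 0.200 and 0.742 ± 0.150 CPM in L2 and rose to 1.50 ± 0.399 CPM in early L3 (log2 change 0.67, limma adjusted p = 0.00144). *E(spl)mbeta-HLH* was at 1.69 ± 0.439, 1.39 ± 0.456 and 1.53 ± 0.382 CPM without a call. *E(spl)m2-BFM* was at 0.400 ± 0.165, 0.385 ± 0.145 and 0.236 ± 0.134 CPM, also without one.

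*pros* was the 1 regulator that fell during L2. Early L2 libraries were at 10.7, 11.7, 9.31, 9.38 and 8.44 CPM, late L2 libraries at 5.46, 7.60, 4.76, 3.51 and 5.13 CPM. In early L3 the values were 4.22, 5.78, 3.93, 3.76 and 2.92 CPM. All early L2 values were above all later ones, and late L2 overlapped early L3. Mean *pros* CPM in late L2 was 0.535 times that in early L2 (log2 change -0.87, SE 0.17, limma adjusted p = 0.00172). The log2 change into early L3 was -0.32 (95% interval -0.69 to 0.05, limma adjusted p = 0.139). From early L2 to early L3 *pros* fell by 1.19 on the log2 scale (limma adjusted p = 2.3e-05), and by 1.31 without early L3 replicate 2. The difference between its later and earlier change, 0.56 (limma adjusted p = 0.165), passed without late L2 replicate 2 (0.82).

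Peptide hormone genes of enteroendocrine cells fell in the same interval as *pros*. Of 12, 8 fell and 0 rose during L2, where 6.51% of all tested entries fell. *Nplp2*, 1 of the 8, encodes a neuropeptide-like precursor that has also been described as a lipoprotein. The summed level of the 12 went from between 249 and 286 CPM in early L2 to between 175 and 211 CPM in late L2. *Dh31*, encoding a diuretic hormone that acts on gut motility, fell from 41.2 ± 3.85 to 22.8 ± 4.86 CPM (log2 change -0.86, limma adjusted p = 0.000108). *Tk*, encoding tachykinins that act on lipid metabolism of the gut, fell from 21.2 ± 2.26 to 14.3 ± 1.54 CPM, and *Orcokinin* from 14.3 ± 0.983 to 8.30 ± 1.67 CPM. *NPF*, encoding neuropeptide F, fell from 5.37 ± 0.698 to 3.15 ± 0.522 CPM. Without early L2 replicate 1, when *Tk* was among those not called (-0.50), 5 of the 12 fell, and with a pseudocount of 4, 3 did. Not every hormone gene moved: *CCHa2*, encoding a nutrient-responsive peptide, was at 58.3 ± 8.86 and 50.1 ± 3.12 CPM without a call.

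Into early L3, 2 of the 12 hormone genes fell and 1 rose, shares near those of all entries (18.7% fell and 6.45% rose). *NPF* fell further to 2.02 ± 0.264 CPM and *Orcokinin* to 5.52 ± 0.664 CPM, but both calls were lost with TMM, median-ratio or quantile scaling. Neither was called without late L2 replicate 2 (-0.47 and -0.45). *NPF* was also not called without late L2 replicate 1 (-0.49) or early L3 replicate 3 (-0.47), nor *Orcokinin* without late L2 replicate 5 (-0.50) or early L3 replicate 4 (-0.48) or 5 (-0.50). *ITP*, encoding ion transport peptide, rose from 4.33 ± 0.835 to 6.56 ± 1.08 CPM (log2 change 0.55, limma adjusted p = 0.00383), and was not called without late L2 replicate 1 (0.49) or early L3 replicate 1 (0.49) or 2 (0.50). Over the whole interval from early L2, 8 of 12 fell and 1 rose, where 24.3% of entries fell and 9.86% rose.

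The machinery that makes and releases peptides was measured by 9 genes. During L2, 5 fell and 0 rose, where 6.51% of entries fell, and 3 fell without late L2 replicate 4. *Syt1*, 1 of the 5, is also on the list of neuron markers. *amon*, encoding the prohormone convertase that cuts peptide precursors, fell from 28.4 ± 3.24 to 19.5 ± 1.58 CPM (log2 change -0.53, limma adjusted p = 0.000231), a call that was lost without early L2 replicate 2 (-0.47) or late L2 replicate 4 (-0.48). Its cofactor gene *7B2* fell from 17.4 ± 2.01 to 10.7 ± 2.61 CPM, and the dense core vesicle gene *IA-2* from 175 ± 20.7 to 109 ± 12.1 CPM. From late L2 to early L3, 1 of the 9 rose and 0 fell, where 6.45% of entries rose and 18.7% fell. It was *svr*, encoding a carboxypeptidase that trims peptides, at 65.8 ± 5.70 and then 97.2 ± 6.81 CPM (0.56, limma adjusted p = 2.95e-06). Among 6 other factors tied to endocrine fate, 1 fell and 0 rose during L2, where 6.51% of entries fell. This was *tap*, a bHLH gene of endocrine cells and neurons, at 0.444 ± 0.141 and then 0.118 ± 0.0654 CPM (-0.61, limma adjusted p = 0.00331). It reached the filter's 0.5 CPM only in early L2, the stage where it is high, and the call was lost with a pseudocount of 1 (-0.37). *ttk*, encoding a zinc finger repressor of endocrine fate, was at 48.1 ± 2.99 and 44.6 ± 1.76 CPM without a call.

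**Figure D3:**
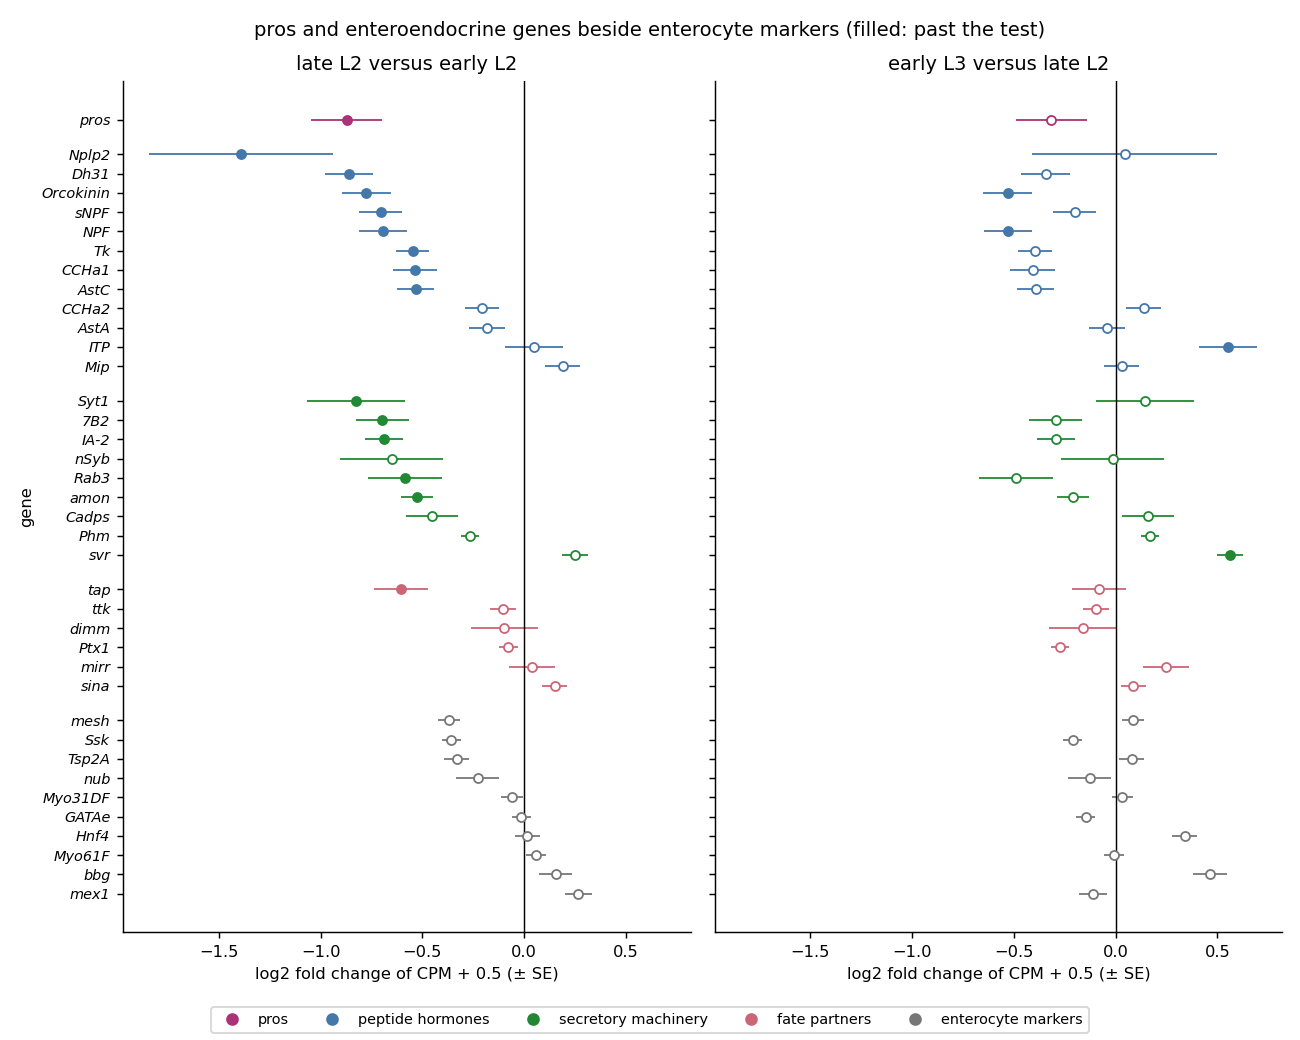
Log2 change of CPM + 0.5 with its SE from limma (x axis) for *pros*, 12 peptide hormone genes, 9 genes of peptide processing and release, 6 endocrine fate genes and 10 enterocyte markers, in 2 comparisons. Filled points passed the test. On the left these are *pros* (-0.87), 8 of the 12 hormone genes, 5 of the 9 processing and release genes, *tap* (-0.61) and 0 of the 10 enterocyte markers. On the right they are 2 hormone genes below 0, and *ITP* (0.55) and *svr* (0.56) above it.

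Of the 10 enterocyte markers, limma, edgeR and DESeq2 called 0 during L2, while 5 had an unadjusted p under 0.05 in limma. With 9.89% of all entries called, a count of 0 of 10 is close to the background. Their log2 changes ran from -0.37 (*mesh*, limma adjusted p = 0.000143) to 0.27 (*mex1*), under the fold minimum. Several of the hormone and release genes are also active in neurons, and *pros* is expressed in the nervous system as well. The 9 neuron and glia markers summed to between 17.9 and 23.7 CPM in early L2 and between 11.0 and 14.97 CPM in late L2. Of the 8 past the filter 3 fell during L2, where 6.51% of entries fell: *brp*, a gene of the synaptic active zone, from 4.91 ± 0.997 to 2.35 ± 0.411 CPM, together with the synaptic vesicle gene *Syt1* and *ChAT*. With each library left out in turn, between 2 and 5 of these markers were called, including 5 without early L3 replicate 2. The neuronal gene *elav* was at 5.52 ± 0.532 and 5.12 ± 1.16 CPM without a call, and *repo* was at or near 0 in early and late L2. The summed muscle markers went from between 6191 and 9193 CPM to between 5417 and 6613 CPM, with 1 of 12 markers called. From early L2 to early L3, 7 of the 12 fell and 0 rose, where 24.3% of entries fell. That count ran from 1 to 9 called markers with each library left out in turn. The part of nerve and muscle tissue on the gut in the fall of *pros* and the hormone genes was not tested.

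Library by library, *pros* followed the neural markers within both L2 stages, which is a description of few libraries. The neural markers include *nSyb* and *Syt1*, which are also on the list of peptide release genes. Their means in early L2 were 2.94 and 3.02 CPM. The 2 early L2 libraries with the highest *pros*, replicates 2 and 1, had neural sums of 23.7 and 22.5 CPM, while the other 3 had sums of 17.9 to 18.4 CPM. In late L2, replicate 2 had the highest *pros* and the highest sum (14.97 CPM), and replicate 4 the lowest of both (11.0 CPM). The hormone sum had the same highest library in late L2, replicate 2 at 211 CPM, and the same lowest, replicate 4 at 175 CPM. In early L2 the highest hormone sum was that of replicate 1 at 286 CPM, ahead of replicate 2 at 276 CPM. Early L3 replicate 2 had the highest *pros* (5.78 CPM) and the highest neural sum of its stage, but its neural sum was above all early L2 libraries while its *pros* was below all of them. Its hormone sum was 187 CPM, against 169 to 183 CPM in the other early L3 libraries.

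**Figure D4:**
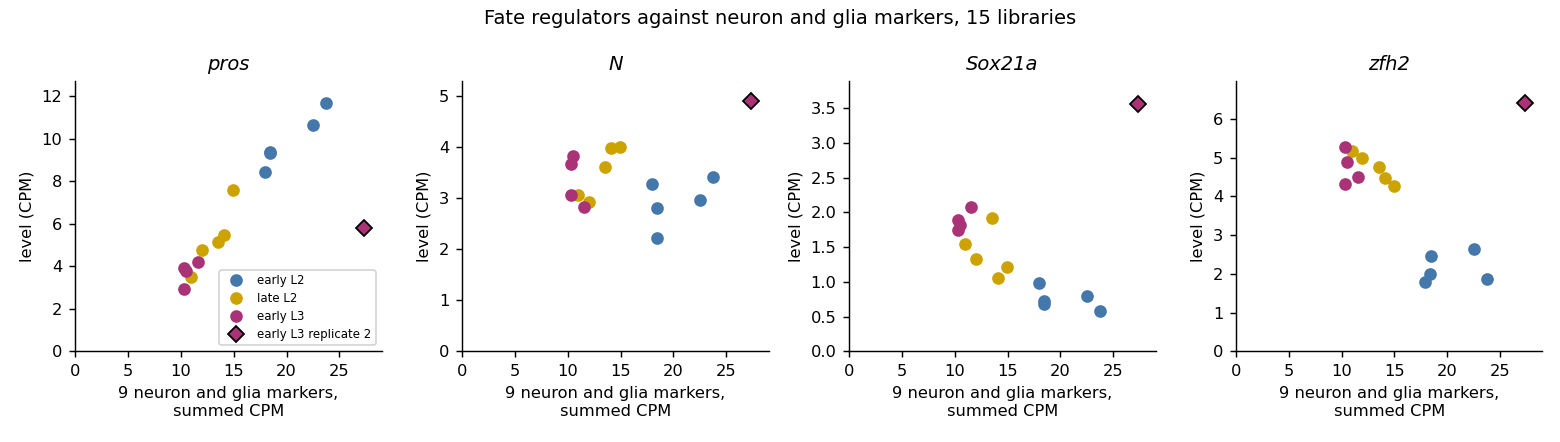
Level in CPM of *pros*, *N*, *Sox21a* and *zfh2* (y axes) against the summed CPM of 9 neuron and glia markers (x axis), 1 point per library and 1 colour per stage. Early L3 replicate 2, the black-edged diamond at 27.3 CPM on the x axis, lies apart from the other 14 libraries, whose *pros* is lowest (2.92 CPM) near a sum of 10.3 CPM and highest (11.7 CPM) at a sum of 23.7 CPM.

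The proneural genes *sc* and *ase* were near the limit of detection in every stage. *sc* had 1, 2, 4, 1 and 3 reads in the early L2 libraries, 0, 1, 0, 7 and 3 reads in late L2 and 0, 0, 0, 0 and 1 reads in early L3. Each early L2 library thus had a read, and 4 of the 5 early L3 libraries had none. Mean *sc* was 0.0754 CPM in early L2 and 0.00590 CPM in early L3 (exact permutation test, 2-sided, p = 0.00794, the smallest p that 5 against 5 can give, and 0.0476 adjusted over 6 tests). The separation is a narrow one: early L2 replicates 1 and 4 and early L3 replicate 5 had 1 read each, at 0.0362, 0.0355 and 0.0295 CPM, so that library size alone set their order. From early to late L2 the exact p was 0.960, and from late L2 to early L3 it was 0.167. A library with 0 reads allows a level of up to 3 reads, and 4 reads was the highest count of *sc* in early L2, so these levels are barely above what 0 reads allow. *ase* had 4 reads in early L2, 1 read in late L2 and 11 reads in early L3, summed over 5 libraries. All 11 early L3 reads came from replicate 2, the library with the raised neural markers, and *ase* is best known as a gene of neural precursors. The part of nervous tissue in these reads was not tested. The exact p for *ase* was 1 for early L3 against either L2 stage and 0.444 within L2.

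Partners of the proneural proteins were well detected. The common bHLH partner gene *da* was at 39.5 ± 1.46, 39.0 ± 2.18 and 37.8 ± 1.10 CPM. Of 3 tested partners and antagonists, limma, edgeR and DESeq2 called 0 in each comparison of stages, where from 0 to 2 had an unadjusted p under 0.05. Limma called 9.89% of all entries during L2, 25.1% into early L3 and 34.2% over the whole interval. With only 3 genes, a count of 0 is close to these shares. *emc*, encoding an antagonist that binds bHLH proteins, was at 61.7 ± 1.28, 56.9 ± 4.71 and 50.1 ± 5.04 CPM.

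Among 11 other genes of progenitors and enteroblasts, 2 rose and 1 fell during L2, where 3.38% of entries rose and 6.51% fell. Both rises were lost with a pseudocount of 1 (0.47 for *Sox100B* and 0.43 for *stg*). *Sox100B*, encoding a Sox factor of the adult stem cell lineage, rose from 0.664 ± 0.198 to 1.30 ± 0.263 CPM (log2 change 0.63, limma adjusted p = 0.00381). *stg*, encoding the Cdc25 phosphatase that starts mitosis, rose from 1.03 ± 0.0908 to 1.75 ± 0.371 CPM (0.54, limma adjusted p = 0.00312), and was not called without late L2 replicate 1 (0.47). *upd3*, encoding a cytokine that enterocytes release under stress, fell from 3.14 ± 1.84 to 0.831 ± 0.327 CPM (-1.29, limma adjusted p = 0.0177). From late L2 to early L3, 1 of the 11 rose and 0 fell, where 6.45% of entries rose and 18.7% fell. It was *heca*, the headcase gene of adult progenitors, at 9.47 ± 1.09 and then 16.2 ± 3.00 CPM (0.73, limma adjusted p = 7.26e-05). The E-cadherin gene *shg* was at 44.2 ± 1.28 and 35.2 ± 1.11 CPM in these stages, with a log2 change of -0.32 that was under the minimum.

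Genes with roles in mitosis were counted as well. During L2, 5 of 28 rose and 0 fell, where 3.38% of entries rose. These were *polo* (1.42 ± 0.245 to 2.92 ± 0.590 CPM, log2 change 0.83), *cmet*, *stg*, *tum* and *scra*, which act in mitotic entry, at the kinetochore and in cytokinesis. Without early L2 replicate 1, 3 rose, since *tum* (0.44) and *scra* (0.45) were not called, while edgeR on the recovered reads called 8 and pseudocounts of 1 and 4 gave 2 and 0. Into early L3, limma called 0 of 28, where 25.1% of all entries were called. Of the 28, 4 had an unadjusted p under 0.05, and edgeR and DESeq2 called 1 each. Over the whole interval 7 rose and 0 fell, where 9.86% of entries rose. With TMM scaling 11 rose, while the number of all entries that rose went from 965 to 1392. Their summed level was between 54.1 and 61.7 CPM in early L2, between 62.5 and 74.9 CPM in late L2 and between 61.3 and 67.5 CPM in early L3. *Bub3* alone was at 15.9 ± 1.11, 18.7 ± 1.43 and 13.9 ± 0.699 CPM in stage order.

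Signals that act on progenitors were also measured. In the EGFR pathway 1 of 10 tested genes fell and 0 rose during L2, where 6.51% of all entries fell. It was *rho*, whose protease product releases EGFR ligands, at 1.76 ± 0.181 and then 0.849 ± 0.161 CPM (-0.75, limma adjusted p = 0.00148). From late L2 to early L3, 1 of the 10 fell and 1 rose, where 18.7% of entries fell and 6.45% rose. With only 10 genes, these counts are close to the background. The ligand gene *spi* fell from late L2 to early L3, from 13.0 ± 1.39 to 7.93 ± 1.08 CPM (-0.69, limma adjusted p = 1.64e-05, and -0.40 without a call after quantile normalization), and the feedback inhibitor gene *kek1* rose from 0.154 ± 0.0828 to 0.520 ± 0.184 CPM, which was not called with a pseudocount of 1 (0.39). In the JAK-STAT pathway 1 of 6, *upd3*, was called during L2, where 9.89% of all entries were called. From late L2 to early L3, limma, edgeR and DESeq2 called 0 of 6, with 1 at an unadjusted p under 0.05 in limma. The share of all entries called by limma in that comparison was 25.1%. *Stat92E*, the transcription factor gene of that pathway, was at 125 ± 12.8, 131 ± 8.53 and 148 ± 7.45 CPM.

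Levels of different genes are compared only per length of annotated exon, which counts all exons of all transcripts and thus lowers genes with long or many transcripts such as *pros*, with 24892 bases of exon. In early L2, *esg* was highest at 1.18 ± 0.248 CPM per kb, with every library above every library of the others. It was followed by *klu* (0.483 ± 0.104), *pros* (0.397 ± 0.0512), *Dl* (0.375 ± 0.0870), *Sox21a* (0.322 ± 0.0638) and *N* (0.290 ± 0.0458), and neighbours in this order overlapped. *zfh2* came next at 0.173 ± 0.0301 CPM per kb, below the lowest *N* library, and *sc* and *ase* were last. In early L3 the order was *esg* (2.38 ± 0.297), *Sox21a* (0.949 ± 0.325), *klu* (0.462 ± 0.0580), *zfh2* (0.408 ± 0.0673), *N* (0.361 ± 0.0799), *Dl* (0.214 ± 0.0555) and *pros* (0.166 ± 0.0420). Here *esg* and *Sox21a* each stood clear of the next gene in every library, while *klu*, *zfh2* and *N* overlapped, as did *N* and *Dl*, and *Dl* and *pros*. *pros* moved from the third to the seventh place and *Sox21a* from the fifth to the second.

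**Figure D5:**
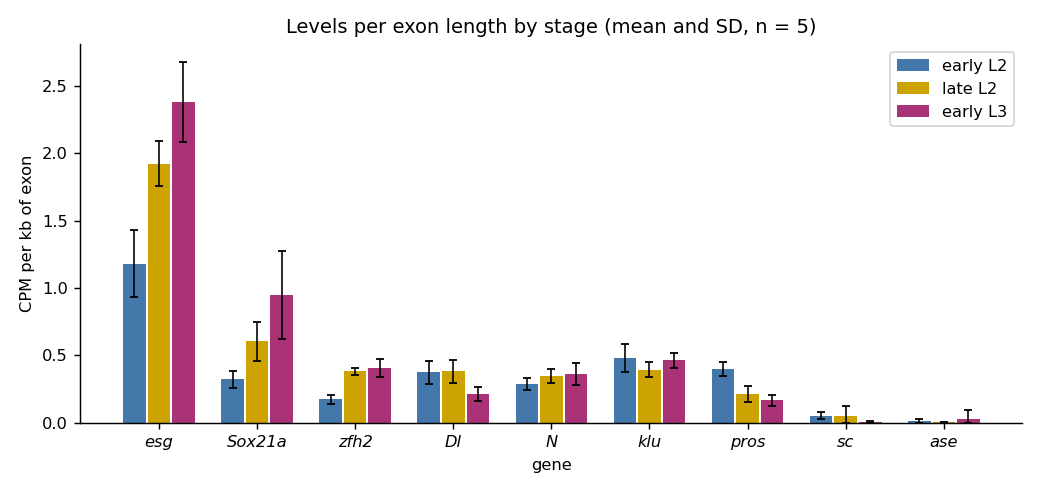
Mean level in CPM per kb of annotated exon for the 9 regulators in the 3 stages, with bars from 0 and error bars of 1 SD (n = 5 libraries). *esg* is the tallest in each stage, at 1.18 in early L2 and 2.38 in early L3, and *sc* and *ase* are close to 0.

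Across the 15 libraries the 3 genes that rose during L2 followed each other, with Pearson r of log2(CPM + 0.5) of 0.893 for *esg* and *zfh2*, 0.843 for *esg* and *Sox21a* and 0.842 for *Sox21a* and *zfh2*. *pros* ran against *esg* (r = -0.831). These values describe 15 points that fall into 3 stages and share the shift between them. After the stage means were removed, r was 0.394 for *esg* and *zfh2* and 0.462 for *Sox21a* and *zfh2*, and the latter was 0.0364 without early L3 replicate 2. For *esg* and *Sox21a* it was 0.255. The closest pair within stages was *Dl* and *pros* (0.728, and 0.744 without that library), although they were called in different intervals.

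The tested entries most like each regulator were then listed by r over the same 15 libraries. For *pros* they were *Mmp2* (0.970), *IA-2* (0.965) and *CG14989* (0.965). *Mmp2*, a matrix metalloproteinase gene, went from 6.17 ± 0.538 to 4.00 ± 0.779 and 3.25 ± 0.506 CPM. For *esg* they were *CG42514* (0.952) and the lysosomal mannosidase genes *LManVI* (0.951) and *LManV* (0.949), and *LManV* was also among the closest for *zfh2* (0.958), after *ApepP* (0.964) and *Dip-B* (0.959), both peptidase genes. *LManV* went from 2547 ± 478 to 6934 ± 1248 and 8654 ± 629 CPM, so that entries at very different levels shared the order of the libraries. For *Sox21a* they were *CG42306* (0.955), *CG5910* (0.953) and *Eglp2* (0.952), and for *Dl* they were *CG12075* (0.899), *CG11134* (0.897) and *f* (0.884). The closest values were lower for the genes without a call, at 0.872 for *N* and a *copia* element and 0.775 for *klu* and *drn*.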

How the data were processed

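Values of 15 libraries for 12133 entries were deposited by the authors in CPM, read numbers brought to the same total in every library. In the processing notes of the submitters, Trim Galore 0.6.7, STAR 2.7.10a, Salmon 1.5.2 and DESeq2 are listed with build BDGP6, without the role of each. The authors' own comparisons, deposited as log2 ratios with p-values, were not used. Whole reads were recovered from CPM by dividing each column by the value of 1 read: 100% of the 166854 values above 0 were whole within 0.001. Library totals were 23981806 to 33902298 reads. Coordinates and exon lengths came from Ensembl 115 (BDGP6.54), in which 12094 of the identifiers were found. *esg* was matched by symbol, since its identifier had changed.

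The 9787 entries that reached 0.5 CPM in 1 or more libraries were tested on log2(CPM + 0.5) with limma 3.58.1 in R 4.3.3, in 1 fit of 3 stages with an intensity trend and no replicate block. P-values were adjusted by Benjamini-Hochberg within each comparison, and calls needed an adjusted p under 0.05 and a change of 0.5 or more on the log2 scale. *sc* and *ase*, under the filter, were tested by exact permutation with SciPy 1.17.1. Recovered reads were also tested with edgeR 4.0.16 and DESeq2 1.42.0. Other scalings, pseudocounts, filters and fold minimums were tried, and each library was left out in turn. The test was checked on simulated data.

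The members and gene lists were chosen with earlier results of these data known, so that list counts are descriptions and carry no test of their own. From each list the genes named are those with the smallest adjusted p among the called (up to 4 per comparison) and the 3 with the highest mean CPM, although not all of these are printed. *mex1* and *repo* were named after their values were seen. Likeness was Pearson r of log2(CPM + 0.5). Runs on gene lists without single libraries, and correlations without early L3 replicate 2, were added after seeing the data. Protein and promoter sequences were not used here.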

Additional observations from a re-analysis of the deposited data

Results flagged for a closer look

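In groups of 5 libraries, the gap between the highest or lowest library and its nearest neighbour was compared with the whole range of the group, over 27 groups of 9 genes and 3 stages. For values that vary continuously, chance marks about 1 group in 20 this way. A group with reads in only 1 library is always marked. *klu* in early L2 replicate 1, at 1.45 CPM, lay below the other 4 libraries (2.36 to 2.66 CPM). *Sox21a* in early L3 replicate 2, at 3.55 CPM, lay above the other 4 (1.74 to 2.08 CPM). Both genes of the *achaete-scute* complex were marked where 1 library had reads and the other 4 had none: *sc* in early L3 replicate 5 (0.0295 CPM, 1 read), *ase* in late L2 replicate 4 (0.0344 CPM, 1 read) and *ase* in early L3 replicate 2 (0.365 CPM, 11 reads). Early L3 replicate 2 holds 2 of these values and is the library with the raised neuron and glia markers, whose part in them was not tested.

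The change of *zfh2* differed between the 2 intervals by a test of the difference itself: the later log2 change minus the earlier was -0.91 (limma adjusted p = 0.00232).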

How the results depend on the processing

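The rises of *zfh2* and the fall of *pros* during L2 held under every alternative tried except a fold minimum of 1. During L2 the main 4 regulators became 2 with a pseudocount of 4 (506 entries called in all) and 0 with a log2 fold minimum of 1 (209), while 2597 entries passed with no minimum. Into early L3 the 1 regulator became 2 (*Dl* and *Sox21a*, or *esg* and *Sox21a* after quantile normalization) with TMM, median-ratio or quantile scaling, a pseudocount of 0.1, edgeR, DESeq2, no minimum (5288 entries), or with late L2 replicate 4 and early L3 replicate 1 both left out. It became 0 with a pseudocount of 4 (1598 entries) or a minimum of 1 (846). From early L2 to early L3 the 5 became 2 with a pseudocount of 4 (2220) and 3 with a minimum of 1 (1253), and 6361 entries passed with no minimum. For the difference between intervals the 1 became 2 after quantile normalization, with the replicate block or without those 2 libraries, and 0 with a pseudocount of 4 or a minimum of 1 (856). With each library left out, 4 to 4, 1 to 2, 5 to 5 and 1 to 2 regulators and 890 to 1038, 2252 to 2648, 3207 to 3454 and 2109 to 2559 entries were called. A pseudocount of 4 is close to or above the level of most regulators.

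Scaling moved the balance of directions: into early L3, 631 entries rose and 1829 fell in CPM, 939 and 1316 with TMM, 976 and 1279 with median-ratio scaling, and 1047 and 1150 after quantile normalization. From early L2 to early L3 these were 965 and 2378 in CPM, 1377 and 1810 with median-ratio scaling, and 1515 and 1664 after quantile normalization. The median log2 fold change of all entries was -0.11 and -0.15 in CPM, and 0.02 and -0.01 with median-ratio scaling. The cause was not tested.

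Replicate numbers did not pair the samples: over 15 same-numbered pairs, r of deviations was -0.18 to 0.20, and 4 pairs were closest to their own number. With the number as a replicate block, 4, 1, 5 and 2 regulators were called, the added 1 being *pros* for the difference between intervals (0.56, limma adjusted p = 0.0413). No other call of a regulator changed with the block.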

Other observations

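Beside the genes described above, markers of 3 other tissues changed between the stages. Of 7 tracheal markers, 5 fell and 1 rose from late L2 to early L3, where 18.7% of all entries fell and 6.45% rose, and their summed level was between 79.2 and 170 CPM in late L2 and between 41.4 and 61.4 CPM in early L3. *serp* and *verm*, encoding chitin deacetylases of the tracheal lining, fell from 19.6 ± 4.89 to 5.46 ± 1.02 CPM and from 29.5 ± 8.58 to 8.84 ± 1.35 CPM (adjusted p = 4.42e-06 and 1.85e-05 from limma). *btl*, encoding the FGF receptor of tracheal cells, rose from 2.94 ± 0.646 to 4.87 ± 0.825 CPM.

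The scavenger receptor gene *crq*, on the hemocyte list, rose in both intervals, at 111 ± 9.04, 191 ± 26.4 and 311 ± 21.3 CPM, while *Hml*, a defining hemocyte marker, was at 0.0772 ± 0.0439, 0.225 ± 0.119 and 0.674 ± 0.459 CPM, with a call into early L3 that was lost with a pseudocount of 1 (0.42). *Hml* reached the filter's 0.5 CPM only in early L3, the stage where it is high. Other genes of that list went the other way. The collagen gene *vkg* fell during L2, from 19.4 ± 6.81 to 8.55 ± 3.24 CPM, and from early L2 to early L3 *vkg* and the collagen gene *Col4a1* both fell (-1.48 and -1.46 on the log2 scale). *Lsp1gamma*, a larval serum protein gene of the fat body, was at 0.853 ± 0.624, 24.3 ± 44.2 and 84.8 ± 33.3 CPM, and the 5 fat body markers summed to between 3.50 and 269 CPM among the late L2 libraries alone.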
